A study of Mus musculus with 8 samples.

Results

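The striatum of mice given the neurotoxin MPTP and needled at the hips was compared with the striatum of saline-injected mice, with 2 mice in each group and 1 array per mouse. These 4 arrays, of the 8 in the series, were chosen by sample titles that name a control mouse or an MPTP-treated mouse needled at non-acupoints. All were male inbred C57BL/6 mice, 6 weeks old and weighing 20 to 22 g. Control mice received 100 µl of saline into the abdomen daily for 4 weeks. Hip-needled mice received MPTP-HCl at 20 mg/kg of free base in the same volume, at intervals of 24 h for 4 weeks, which the labels describe as a chronic parkinsonism model. Needles entered 3 mm deep on both sides of the hips, 2 h after the first injection and then every 48 h for 14 sessions, and were turned at 2 spins per second for 15 s. The remaining 4 arrays came from 2 mice given MPTP alone and 2 given MPTP and needled in the same way at the acupoints GB34 (3 mm deep) and LR3 (1 mm deep). The labels describe no needling of controls and no needled mice without MPTP, so a difference from control comes with MPTP and hip needling together, and MPTP is held constant only in the comparison with the other MPTP-treated groups. The interval between the last treatment and the dissection is not given in the sources used here. The comparison asks which transcripts still differed from saline in mice that had both MPTP and hip needling.

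The striatum is built mainly of medium spiny neurons, which receive dopamine from the substantia nigra and glutamate from the cortex and thalamus. MPTP is turned into a toxin that enters dopamine neurons and blocks complex I of the respiratory chain, and the cell bodies of those neurons lie outside the striatum. The striatum borders a ventricle, which is lined by ciliated ependymal cells and holds choroid plexus, where cerebrospinal fluid is made. Neurons switch on immediate early genes when they are active, and cells switch on heat shock chaperones when their proteins are damaged. In dissected tissue, fewer cells of a type and less RNA per cell cannot be told apart.

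Array medians ranged from 6.02 to 6.12 on the log2 scale. Defining markers of striatal neurons were present in all 4 arrays, and Penk, the enkephalin precursor, was at 13.15 and 13.10 in controls and at 13.09 and 12.74 in hip-needled mice. The 2 mice of a group correlated at 0.995 over the tested probe sets in controls and at 0.989 in hip-needled mice. Gaps of at least 1 log2 unit between the mice of a group were found for a single probe set in controls (0.00612%) and for 59 in hip-needled mice (0.361%). In the MPTP group the correlation was 0.950 and 827 probe sets had such a gap (5.06%), so values of that group are given mouse by mouse. The labels call the samples separate mice. The smallest two-sided p that an exact permutation of 4 arrays allows is 0.333, and limma's moderated model across all genes was therefore the test.

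Choroid plexus genes stood highest in the hip-needled striatum, and the 2 genes that passed the test are both products of that tissue. Ttr, which encodes transthyretin, the thyroid hormone carrier that choroid plexus secretes, stood at log2 values of 8.63 and 8.88 in the control mice against 13.20 and 13.49 in the hip-needled mice. Kcnj13, which encodes the potassium channel Kir7.1 of the choroid plexus epithelium, had 5.34 and 5.45 in controls and 10.01 and 10.95 in hip-needled mice. Both hip-needled mice lay far above both controls for each gene. Ttr rose by 4.59 on the log2 scale, which is 24.1-fold (SE 0.14, adjusted p = 0.00114), and Kcnj13 rose by 5.09, which is 34.0-fold (SE 0.29, adjusted p = 0.0228). These 2 were the only calls among 16348 probe sets (0.0122%) in the fit on the 4 arrays. At an unadjusted p under 0.05, 1327 probe sets (8.12%) were higher and 821 (5.02%) lower, so 61.8% of these were higher, and 77.1% were when each array was centred on its median, which moved the median of all probe sets from 0.005 to 0.053. The groups did not overlap in 4405 probe sets that were higher (26.9%) and in 3693 that were lower (22.6%). Most genes named below were picked from these, so their separation from the controls was set by that choice. Differences of 1 or more on the log2 scale were found in 64 probe sets that were higher and in 3 that were lower, and differences of 2 or more in 11 and 0. No probe set was called when the 8 arrays shared 1 model (smallest adjusted p 0.767, with 620 higher and 374 lower at an unadjusted p under 0.05), and 32 were called with trend and robust shrinkage. Without hip-needled mouse 1 there were 1146 calls and without hip-needled mouse 2 there were 52. Without control mouse 1, or without control mouse 2, 1 call was left, Ttr, and Kcnj13 had an adjusted p of 0.316 and 0.283.

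**Figure D1:**
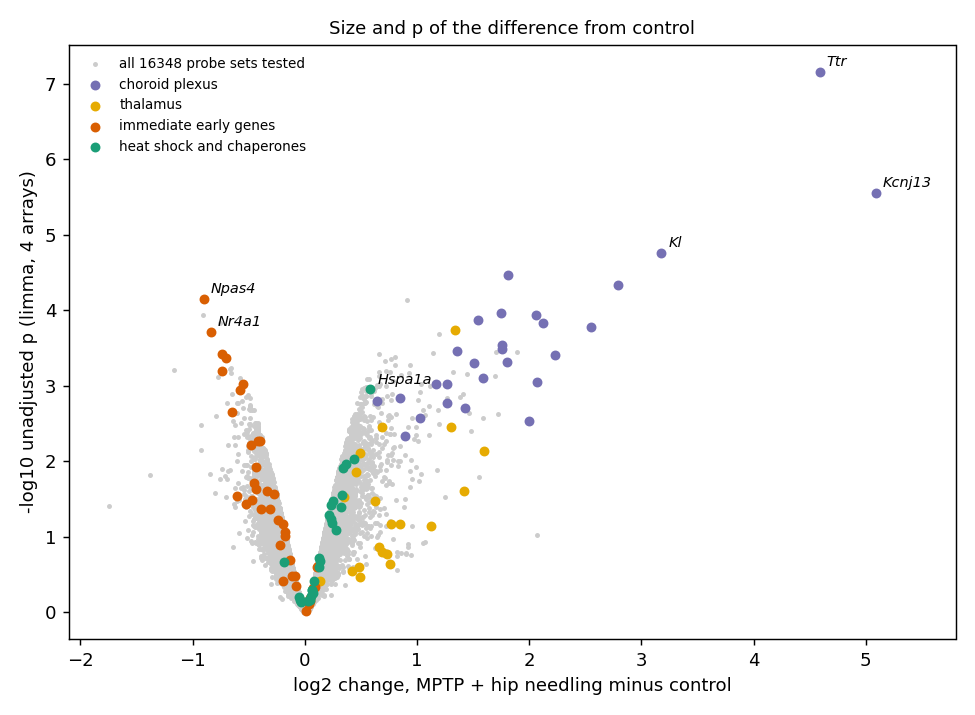
Difference between hip-needled and control mice (x axis, log2 scale) against -log10 of the unadjusted limma p (y axis) for all 16348 probe sets, with 1 point per probe set and 4 gene lists in colour (1 probe set per gene). Ttr and Kcnj13 lie at the upper right, the other choroid plexus markers spread below them at positive changes, and Npas4 and Nr4a1 lead the immediate early genes at the upper left.

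The same 2 transcripts were not high in every MPTP-treated mouse. Ttr stood at 13.39 and 8.12 in the MPTP mice and at 13.42 and 9.98 in the acupoint-needled mice. Kcnj13 stood at 10.13 and 5.06 in the MPTP mice and at 10.23 and 5.60 in the acupoint-needled mice. In each of those groups, 1 mouse was near the hip-needled mice and the other was near the controls. In the model over 8 arrays Ttr was 2.59 above the MPTP group (adjusted p = 0.764) and 1.64 above the acupoint group, and Kcnj13 was 2.88 (adjusted p = 0.762) and 2.57 above them. The adjusted p against the acupoint group was 0.965 for each gene, so none of these differences passed the test.

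Of 30 choroid plexus markers listed, 27 were measured, and these 27 had higher means in the hip-needled mice, with no overlap between the groups and an unadjusted p under 0.05 in each. Their median difference was 1.76, against 0.006 over the 14893 genes tested. Of those 14893 genes, 27.2% were higher and 22.3% lower without overlap. At an unadjusted p under 0.05, 8.1% were higher and 5.06% lower. These shares are the background for each list below. The filter asked for a mean of 5.24 over the 4 arrays, and 4 of the 27, F5, Cldn2 and Slc4a5 among them, had control means below that and passed only through the hip-needled mice, so they had to differ. The other 23 were also all higher, with a median of 1.59. Kl, which encodes klotho, had 5.64 and 5.55 in controls and 8.37 and 9.18 in hip-needled mice (adjusted p = 0.095). Sostdc1, a secreted antagonist of BMP and Wnt signals, had 6.22 and 6.03 in controls and 8.51 and 9.34 in hip-needled mice. For both genes the needled mice lay more than 2 log2 units above the controls, with mouse 2 the higher. Folr1, the folate receptor that carries folate into cerebrospinal fluid, had 6.40 and 6.70 in controls against 8.18 and 8.54. F5, coagulation factor V, differed by 2.55, the tight junction gene Cldn2 by 2.23, the potassium channel subunit Kcne2 by 2.13, Ecrg4 by 2.07 and the bicarbonate transporter Slc4a5 by 2.06. Clic6, a chloride channel gene, differed by 1.75 and the lipopolysaccharide-binding protein gene Lbp by 1.54. None of the 25 markers beside Ttr and Kcnj13 passed the adjusted threshold. Hip-needled mouse 2 exceeded mouse 1 in all 27. Relative to the control mean, the list averaged 1.58 and 2.28 in the hip-needled mice, 1.68 and -0.18 in the MPTP mice, and 1.79 and 0.06 in the acupoint-needled mice. The hip-needled group was thus the only one of the 4 groups in which both mice had high values. Higher in both hip-needled mice than in all 6 other arrays were 2 of the 27 genes, where 6.86% of all probe sets were. These 2 were Ace and Msx1, named after their values were seen. Without hip-needled mouse 2 the median of the list was 1.39. Because this list separates the same groups, the part of choroid plexus RNA in the other differences from control was not tested, and its values are given beside them where they bear on one.

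**Figure D2:**
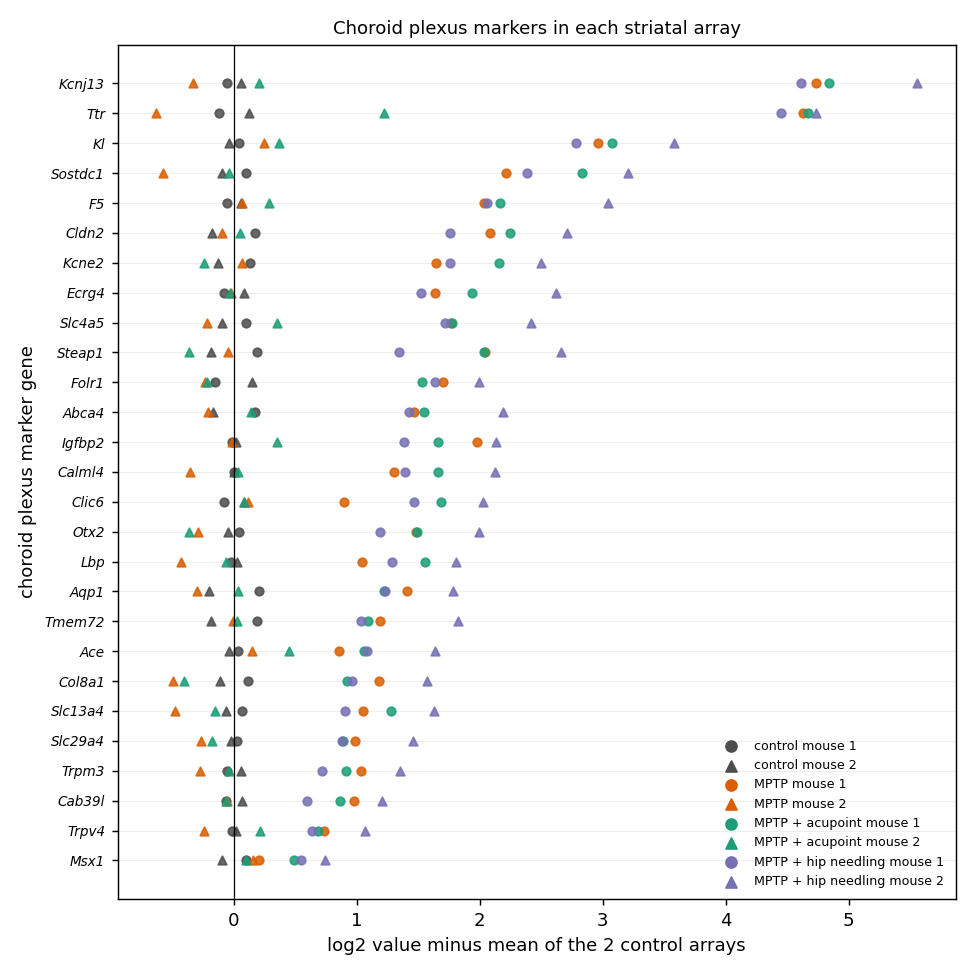
Choroid plexus markers (y axis, ordered by their difference) as log2 value minus the mean of the 2 control arrays (x axis), with 1 point for each of the 8 mice. Both hip-needled mice lie to the right of both controls in all 27 rows, with Kcnj13 and Ttr farthest out, while 1 MPTP mouse and 1 acupoint-needled mouse lie beside the controls.

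Markers of the thalamus, which lies close to the striatum, had higher means in the hip-needled mice, chiefly in mouse 2. All 20 thalamus markers were higher, 12 without overlap and 9 at an unadjusted p under 0.05, and their median difference was 0.69. Calb2, which encodes calretinin, had 8.75 and 8.81 in controls and 9.89 and 10.35 in hip-needled mice (adjusted p = 0.186). Slc17a6, the vesicular glutamate transporter of thalamic neurons, had 9.34 and 9.32 in controls and 10.27 and 11.60 in hip-needled mice. Tcf7l2, a Wnt-pathway transcription factor of the thalamus, had 7.51 and 7.59 in controls and 8.17 and 9.77 in hip-needled mice. For these genes mouse 1 lay between the controls and mouse 2. All 20 markers were higher in hip-needled mouse 2 than in mouse 1, with a median gap of 1.22. The list averaged 0.26 in mouse 1 and 1.28 in mouse 2, against 2.05 and -0.51 in the MPTP mice and 0.59 and -0.08 in the acupoint-needled mice. Without hip-needled mouse 1 its median was 1.32 and without mouse 2 it was 0.21.

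Markers of the septum and pallidum showed no common direction, with 8 of 14 higher, 6 lower and a median of 0.10. The median was -0.066 without hip-needled mouse 1 and 0.25 without mouse 2. Of the 14, 1 passed the filter only through the hip-needled mice, and the other 13 had 7 higher and 6 lower. Zic5, a zinc finger transcription factor, had 7.47 and 7.33 in controls and 8.05 and 8.74 in hip-needled mice. Zic2, of the same family, differed by 0.74 and stood at 8.67 in MPTP mouse 1. Both had the opposite sign with the choroid plexus markers as a covariate over 8 arrays (-0.35 for Zic5 and -0.57 for Zic2). Among 11 hypothalamic markers 6 were higher and 4 of them had an unadjusted p under 0.05 (36.4%, against 8.1% of all genes). Of the 11, 1 passed the filter only through the hip-needled mice and so had to be higher. The other 10 had 5 higher and 5 lower, with a median of 0.13. Oxt, which encodes oxytocin, had 7.81 and 7.76 in controls and 9.23 and 8.11 in hip-needled mice. Trh, the thyrotropin-releasing hormone gene, had 6.84 and 6.81 in controls and 8.01 and 7.31 in hip-needled mice. For Oxt and Trh both hip-needled mice lay above all 6 other arrays, with mouse 1 the higher. Zic5 did so as well, with mouse 2 the higher.

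Cortical excitatory neuron markers had lower means in 12 of 17 cases, 7 of them at an unadjusted p under 0.05, with a median of -0.20. Slc17a7, the vesicular glutamate transporter of cortical neurons, had 9.47 in each control and 6.60 and 8.84 in hip-needled mice. It had the lowest difference of all genes tested, at -1.74 (SE 0.66, adjusted p = 0.363), and most of it came from mouse 1. Tbr1, a transcription factor of deep cortical layers, had 7.44 and 7.82 in controls and 6.39 and 7.01 in hip-needled mice. Fezf2, which specifies corticofugal neurons, had 7.31 and 7.45 in controls and 6.75 and 6.70 in hip-needled mice. Of the 5 markers with higher means, 1 had an unadjusted p under 0.05 (5.88%, against 8.1% of all genes). This was Rasgrf2, with 8.228 and 8.382 in controls and 8.735 and 8.772 in hip-needled mice, which lay above all 6 other arrays. The cortical list averaged -0.45 in mouse 1 and -0.05 in mouse 2, the reverse of the order for the thalamus list. The same list averaged -0.21 and 0.003 in the MPTP mice and -0.29 and -0.38 in the acupoint-needled mice. Slc17a7 stood at 9.79 and 9.50 in the MPTP mice and at 7.77 and 8.28 in the acupoint-needled mice.

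**Figure D3:**
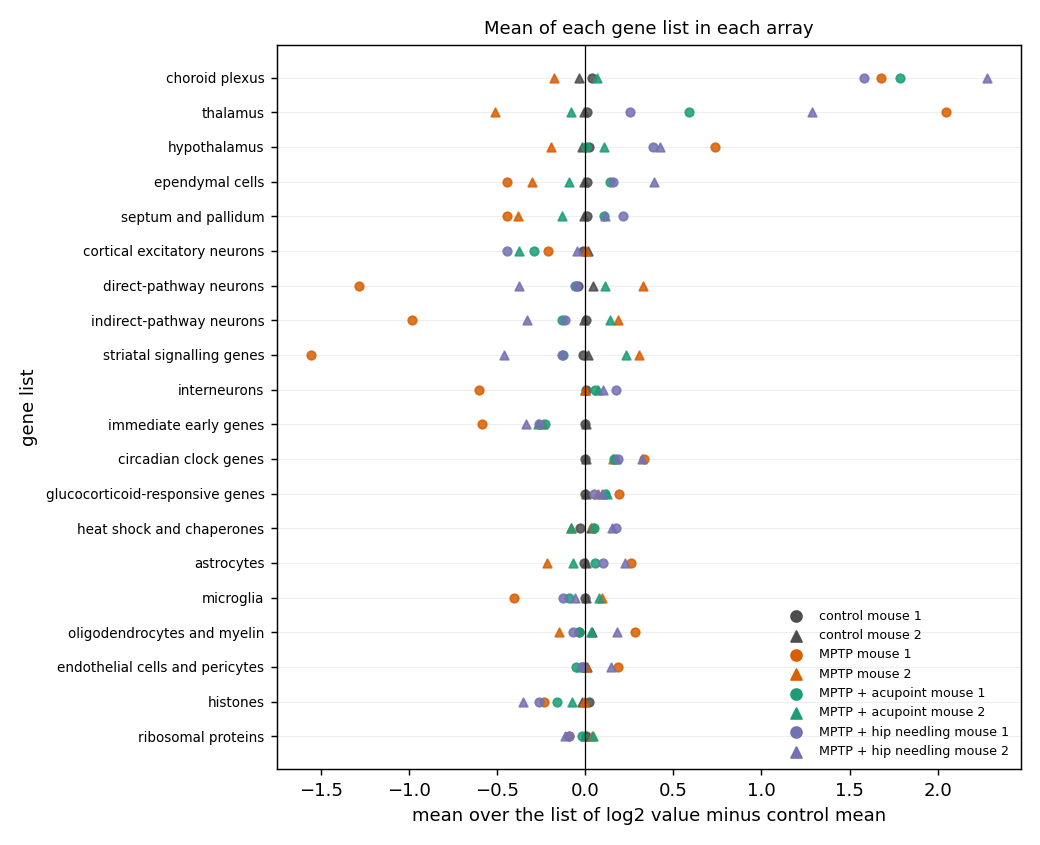
Mean over each gene list (y axis) of the log2 value minus the control mean (x axis), with 1 point for each of the 8 mice. The choroid plexus list separates 4 mice, both hip-needled ones among them, from the other 4, while MPTP mouse 1 stands apart for thalamus and for striatal signalling genes.

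Genes of the ependyma were higher in the hip-needled mice, 17 of 18 by their means. Without overlap there were 13 and at an unadjusted p under 0.05 there were 7, with a median of 0.30, which was 0.40 without hip-needled mouse 1 and 0.14 without mouse 2. Ak7, an adenylate kinase of motile cilia, had 7.15 and 7.14 in controls and 7.57 and 7.83 in hip-needled mice. Dnah6, a dynein heavy chain of cilia, had 5.98 and 6.03 in controls and 6.54 and 7.26 in hip-needled mice. Both genes were lower in the MPTP mice than in the controls, at 6.20 and 6.94 for Ak7 and at 5.48 and 5.60 for Dnah6. The radial spoke gene Rsph4a had 6.02 and 6.31 in the MPTP mice and 7.15 and 7.34 in the hip-needled mice, with 6.76 and 6.96 in controls. Of the 18 genes, 9 were higher in both hip-needled mice than in all 6 other arrays, where 6.86% of all probe sets were. Among them was Foxj1, the master regulator of motile cilia, with 6.81 in each hip-needled mouse against 6.65 and 6.58 in controls. Ependymal cells line the same ventricle that holds the choroid plexus, whose marker list averaged 1.58 and 2.28 in the same mice, and the part of the choroid plexus in this difference was not tested.

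Genes of the striatal projection neurons had lower means, chiefly in hip-needled mouse 2. Of 30 genes of striatal signalling, 28 were lower, 23 without overlap and 11 at an unadjusted p under 0.05, and the median was -0.29. Rgs9, a brake on dopamine and opioid receptor signalling, had 11.11 and 11.07 in controls and 10.64 and 10.31 in hip-needled mice (adjusted p = 0.265). Rarb, the retinoic acid receptor of striatal neurons, had 10.04 and 10.02 in controls and 9.61 and 9.19 in hip-needled mice. Ppp1r1b, which encodes DARPP-32, the phosphatase inhibitor that relays dopamine signals, had 11.42 and 11.32 in controls and 11.14 and 10.65 in hip-needled mice. In each of these genes mouse 2 was the lowest of the 4 arrays. It was lower than mouse 1 in 29 of the 30, and the list averaged -0.13 in mouse 1 and -0.46 in mouse 2. The median was -0.43 without mouse 1 and -0.11 without mouse 2. The list averaged -1.56 and 0.30 in the MPTP mice. In hip-needled mouse 2, which had the lower striatal values, thalamus markers averaged 1.28, and their part in the lower values was not tested.

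Both classes of projection neuron had mostly lower means, and the difference between the classes was not tested. Of 9 markers of direct-pathway neurons, which carry the D1 receptor, all had lower means. Without overlap there were 3 (33.3%, against 22.3% of all genes), and 1 had an unadjusted p under 0.05 (11.1%, against 5.06%). The median was -0.22, which was -0.43 without hip-needled mouse 1 and -0.041 without mouse 2. Drd1 had 10.29 and 10.32 in controls and 10.15 and 9.61 in hip-needled mice, and Tac1, the substance P precursor, had 11.18 and 11.30 in controls and 11.16 and 10.49 in hip-needled mice. Of 9 markers of indirect-pathway neurons, which carry the D2 receptor, 7 had lower means, 6 without overlap and 3 at an unadjusted p under 0.05, with a median of -0.26, which was -0.12 without hip-needled mouse 2. Drd2 had 10.11 and 10.04 in controls and 9.98 and 9.61 in hip-needled mice. Gpr6, an orphan receptor of the indirect pathway, differed most, by -0.80, with 10.20 and 10.12 in controls and 9.80 and 8.92 in hip-needled mice. For Drd1, Tac1, Drd2 and Gpr6, hip-needled mouse 1 lay between the controls and mouse 2. Pdyn, the dynorphin precursor, overlapped between the groups, with 8.77 and 8.71 in controls and 8.79 and 8.11 in hip-needled mice.

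Genes of dopamine synthesis and transport showed no common direction, with 8 of 15 higher, 7 lower and a median of 0.03 (0.009 to 0.062 with 1 array left out). Th, which encodes tyrosine hydroxylase, had 6.73 and 6.80 in controls and 6.92 and 6.45 in hip-needled mice. Slc6a3, the dopamine transporter through which the MPTP toxin enters neurons, had 5.95 and 5.54 in controls and 5.66 in each hip-needled mouse. Both genes overlapped between the groups. Ddc, which completes dopamine synthesis, had 7.44 and 7.48 in controls and 7.72 and 7.66 in hip-needled mice. These transcripts are made mostly in midbrain cell bodies, so striatal arrays measure little of them.

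Immediate early genes had lower means as a list in the hip-needled mice, and Npas4 led all lower genes by p. Of 41 measured, 32 were lower and 9 higher, 29 of the lower ones without overlap (70.7%, against 22.3% of all genes). At an unadjusted p under 0.05, 21 were lower (51.2%, against 5.06%) and 0 were higher. Of the 41, 1 passed the filter only through the controls and so had to be lower. The median was -0.27. None passed the adjusted threshold. The promoters of 3 leading members are shown because these genes had lower means together and are known targets of CREB, the factor that couples calcium and cyclic AMP to transcription and that binds the CRE. Each window is a RefSeq promoter (GRCm38.p6) from 250 bases before to 50 after the gene's start, written 5′ to 3′ on the strand of the gene, with each match to TGACG, the CRE half-site, in capitals on either strand (CGTCA is its reverse complement).
Npas4, chr19:4989922-4990221, minus strand: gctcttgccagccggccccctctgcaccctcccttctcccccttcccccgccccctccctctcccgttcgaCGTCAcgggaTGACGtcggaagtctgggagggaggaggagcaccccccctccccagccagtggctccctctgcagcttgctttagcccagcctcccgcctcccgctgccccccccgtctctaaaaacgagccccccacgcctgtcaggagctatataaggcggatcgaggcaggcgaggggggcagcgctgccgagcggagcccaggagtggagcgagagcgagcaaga
Nr4a1, chr15:101266596-101266895, plus strand: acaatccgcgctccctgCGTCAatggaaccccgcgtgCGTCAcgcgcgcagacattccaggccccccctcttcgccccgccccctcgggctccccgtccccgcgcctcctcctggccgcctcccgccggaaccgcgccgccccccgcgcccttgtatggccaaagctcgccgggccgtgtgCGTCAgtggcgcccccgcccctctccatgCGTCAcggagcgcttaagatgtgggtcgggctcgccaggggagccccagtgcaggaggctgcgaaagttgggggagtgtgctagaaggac
Fos, chr12:85473640-85473939, plus strand: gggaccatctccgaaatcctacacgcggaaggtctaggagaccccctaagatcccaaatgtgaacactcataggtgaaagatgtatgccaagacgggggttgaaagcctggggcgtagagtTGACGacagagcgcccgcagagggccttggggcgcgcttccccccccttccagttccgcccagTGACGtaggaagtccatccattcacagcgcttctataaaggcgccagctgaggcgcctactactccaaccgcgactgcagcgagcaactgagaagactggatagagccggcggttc
The window of Npas4 held 2 matches, that of Nr4a1 held 4 and that of Fos held 2. A promoter window was found for 31 of the 41 genes, and 22 of those 31 (71.0%) held the half-site on either strand, against 23.0% of all 27025 genes with a window. The complete CRE, TGACGTCA, which contains the half-site, was in 3 of the 31 (9.68%), against 2.03% of all genes. A match describes the letters only.

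Npas4, which neurons make in response to synaptic activity, had 7.93 and 7.95 in controls and 6.99 and 7.09 in hip-needled mice. Its difference was -0.90 (SE 0.09, adjusted p = 0.173). It was lower still in the other MPTP-treated mice, at 5.95 and 6.55 in the MPTP group and 6.80 and 6.76 in the acupoint group. Nr4a1, an orphan nuclear receptor induced by activity, had 10.48 and 10.51 in controls and 9.75 and 9.57 in hip-needled mice, a difference of -0.84 (SE 0.10). Fos, a component of AP-1, had 7.56 and 7.58 in controls and 6.74 and 6.92 in hip-needled mice. Arc, a synaptic plasticity protein, had 9.41 and 9.36 in controls and 8.77 and 8.61 in hip-needled mice, and 7.60 and 8.33 in the MPTP mice. In all 4 of these genes both hip-needled mice and all 4 other MPTP-treated mice lay below both controls. Egr2, a zinc finger factor of the same class, had 7.61 and 7.82 in controls and 7.04 and 6.92 in hip-needled mice, and Dusp1, a phosphatase that switches off MAP kinases, differed by -0.41. The list averaged -0.26 and -0.34 in the hip-needled mice, -0.59 and -0.24 in the MPTP mice, and -0.23 and -0.27 in the acupoint-needled mice. All 6 MPTP-treated mice averaged below both controls. With the choroid plexus markers as a covariate over 8 arrays, the median of the list was -0.13 and Nr4a1 was at 0.11, and the part of choroid plexus RNA in these values was not tested. Only 1 of the 41 genes was lower in both hip-needled mice than in all 6 other arrays, where 4.16% of all probe sets were.

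**Figure D4:**
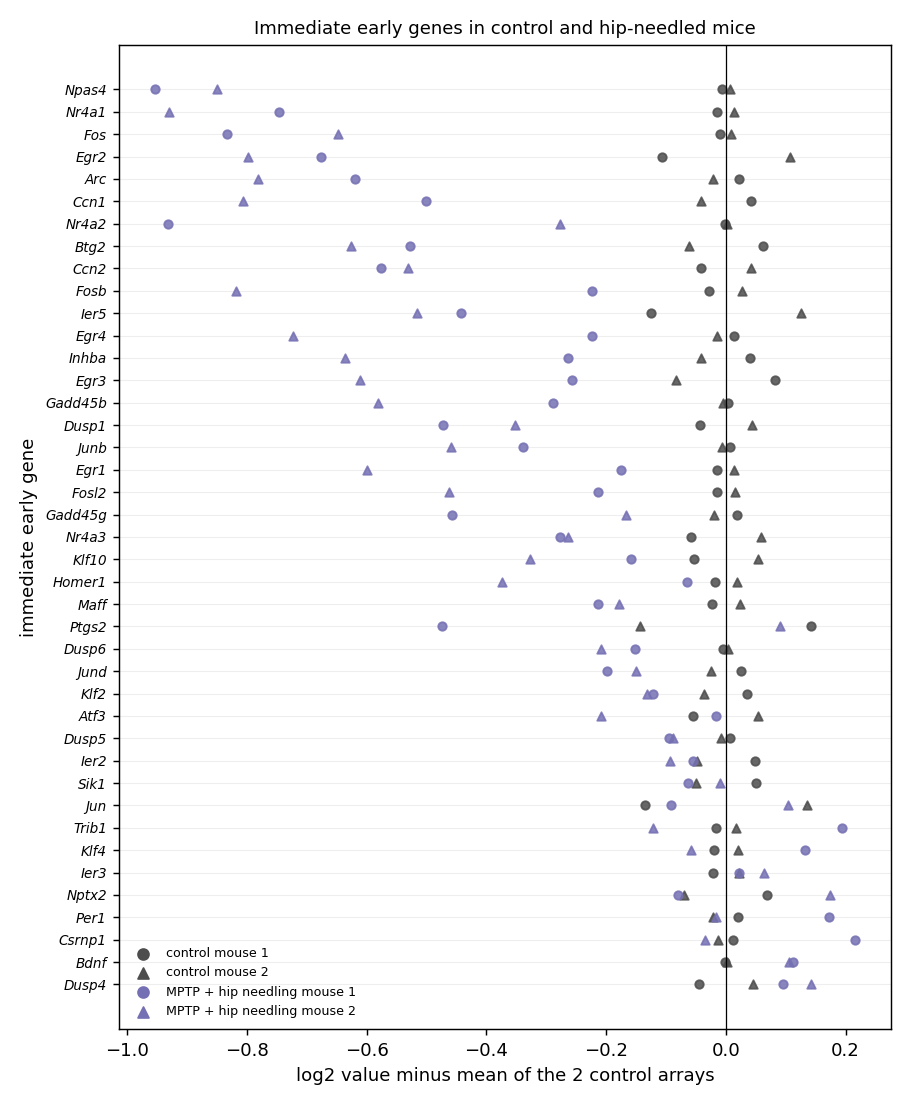
Immediate early genes (y axis, ordered by their difference) as log2 value minus the mean of the 2 control arrays (x axis), for the 2 control and 2 hip-needled mice. Npas4, Nr4a1, Fos, Egr2 and Arc lie at the far left in both needled mice, and 29 of the 41 genes have both needled mice below both controls.

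Heat shock and chaperone genes had higher means in the hip-needled mice, and Hspa1a, which encodes the inducible chaperone HSP70, led them. Of 27 measured, 23 were higher, 19 without overlap and 8 at an unadjusted p under 0.05, and the median was 0.13. None passed the adjusted threshold. The promoters of Hspa1a and Hspb8 are shown because heat shock factor binds inverted repeats of GAA in the promoters of such genes. The capitals mark GAANNTTC, a pair of such repeats that reads the same on both strands, in RefSeq windows of the same length and build.
Hspa1a, chr17:34972107-34972406, minus strand: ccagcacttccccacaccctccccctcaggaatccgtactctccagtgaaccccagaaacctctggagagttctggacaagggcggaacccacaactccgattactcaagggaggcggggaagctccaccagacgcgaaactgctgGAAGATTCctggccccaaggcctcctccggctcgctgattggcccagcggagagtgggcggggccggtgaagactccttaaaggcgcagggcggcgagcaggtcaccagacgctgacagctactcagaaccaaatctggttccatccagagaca
Hspb8, chr5:116422815-116423114, minus strand: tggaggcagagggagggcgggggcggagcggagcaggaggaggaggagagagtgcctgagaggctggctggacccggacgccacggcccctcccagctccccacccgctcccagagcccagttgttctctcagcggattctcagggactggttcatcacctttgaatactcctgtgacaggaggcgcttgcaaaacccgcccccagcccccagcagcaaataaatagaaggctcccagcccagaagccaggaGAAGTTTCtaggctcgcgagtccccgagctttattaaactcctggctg
Each window held 1 match. Of 24 listed chaperone genes with a window, 12 (50%) held the motif, against 9.04% of all genes. This share belongs to the genes listed, whatever their values here, and a match describes the letters only. Other motifs searched were GGATTA, in 3 of 22 choroid plexus genes (13.6%, against 8.14% of all genes), and CACGTG, in 5 of 18 clock genes (27.8%, against 8.09%).

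Hspa1a had 6.69 and 6.85 in controls, 6.67 and 6.54 in MPTP mice, 6.83 and 6.49 in acupoint-needled mice, and 7.33 and 7.38 in hip-needled mice. Both hip-needled mice lay above the other 6 arrays. The difference from control was 0.58 (SE 0.10, adjusted p = 0.243), and the unadjusted p in the model over 8 arrays was 0.000964 against the MPTP group (adjusted p = 0.501) and 0.00146 against the acupoint group (adjusted p = 0.965). A neighbouring copy, Hspa1b, has nearly the same sequence, so the signal is uncertain as to which copy it came from. Dnajb1, an HSP40 co-chaperone, had 8.28 and 8.48 in controls and 8.89 and 8.73 in hip-needled mice. Hspb8, a small heat shock protein, had 7.22 and 7.38 in controls and 7.62 and 7.72 in hip-needled mice. Bag3, the co-chaperone that works with Hspb8 in clearing misfolded proteins, had 6.67 and 6.68 in controls and 6.94 and 7.09 in hip-needled mice. Each of these 4 genes was higher in both hip-needled mice than in all 6 other arrays, as were 8 of the 27 in the list and 6.86% of all probe sets. The list averaged 0.18 and 0.15 in the hip-needled mice, 0.04 and -0.08 in the MPTP mice and 0.05 and -0.08 in the acupoint-needled mice. With the choroid plexus markers as a covariate over 8 arrays the median of the list was -0.007 and Hspa1a was at 0.35, and the part of choroid plexus RNA in these values was not tested. Without control mouse 1 the median of the list was 0.06 and without control mouse 2 it was 0.22.

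Among genes of the unfolded protein response of the endoplasmic reticulum, 20 of 25 had higher means and 3 of them an unadjusted p under 0.05, with a median of 0.11, which was 0.013 without hip-needled mouse 1. Dnajc3, a co-chaperone of that compartment, differed by 0.41. Among 30 genes of oxidative stress and metallothioneins, 20 were higher and 5 of them at an unadjusted p under 0.05 (16.7%, against 8.1% of all genes). Nfe2l2, which encodes NRF2, the factor that switches on antioxidant genes, had 7.70 and 7.92 in controls and 8.38 and 8.72 in hip-needled mice, above all 6 other arrays. Gpx8, a peroxidase of the endoplasmic reticulum, had 7.14 and 7.26 in controls and 7.98 and 8.49 in hip-needled mice.

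Genes that respond to glucocorticoid hormone were divided. Of 22 measured, 14 were higher and 8 lower, with a median of 0.05, which was 0.02 without hip-needled mouse 2. Zbtb16, a zinc finger factor induced by glucocorticoids, had 6.99 and 7.22 in controls and 8.13 and 8.47 in hip-needled mice, a difference of 1.20 (SE 0.15, adjusted p = 0.190). It also stood at 8.01 and 7.26 in the MPTP mice and at 7.92 and 7.85 in the acupoint-needled mice, all above both controls. Tsc22d3, which encodes the glucocorticoid-induced leucine zipper GILZ, had 7.04 and 7.08 in controls and 7.44 and 7.62 in hip-needled mice. Sgk1, a kinase of the same response, did not follow them. It had 8.86 and 9.07 in controls and 8.83 and 9.06 in hip-needled mice, but 9.84 and 9.77 in the MPTP mice and 9.98 and 9.82 in the acupoint-needled mice. The difference of the hip-needled mice from control was -0.015 (SE 0.12). In the model over 8 arrays the unadjusted p was 0.000284 against the MPTP group and 0.000151 against the acupoint group, and neither passed adjustment (adjusted p = 0.357 and 0.965). For Sgk1 the 4 mice given MPTP without hip needling lay above the 4 remaining mice with no overlap.

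Circadian clock genes were higher in 19 of 21 cases, 15 without overlap and 8 at an unadjusted p under 0.05, with a median of 0.21. Per2, a core clock repressor, had 6.65 and 6.63 in controls and 7.18 and 7.07 in hip-needled mice. Dbp, an output factor of the clock, had 9.26 and 9.23 in controls and 9.63 and 9.68 in hip-needled mice, and 9.34 and 9.82 in the MPTP mice. Bhlhe41 and Nr1d2, both repressors within the clock, differed by 0.53 and 0.46. The list averaged 0.18 and 0.32 in the hip-needled mice, 0.34 and 0.16 in the MPTP mice and 0.16 and 0.17 in the acupoint-needled mice. All 6 MPTP-treated mice averaged above both controls for these genes. The hour at which the striatum was taken from each mouse is not given in the sources used here.

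**Figure D5:**
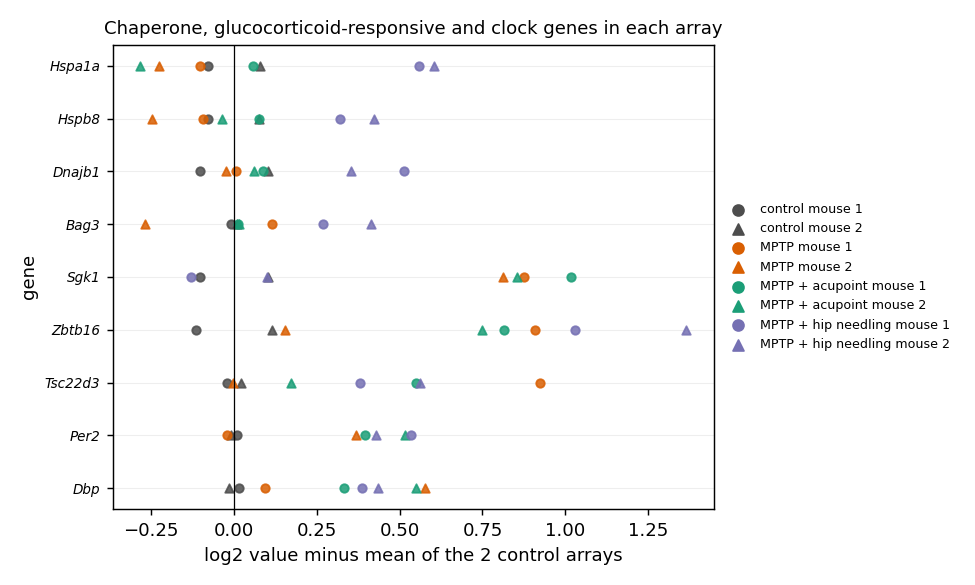
Chaperone, glucocorticoid-responsive and clock genes (y axis) as log2 value minus the mean of the 2 control arrays (x axis), with 1 point for each of the 8 mice. Hspa1a, Hspb8, Dnajb1 and Bag3 have both hip-needled mice to the right of all others, Sgk1 has them beside the controls, and Dbp has all 6 MPTP-treated mice to the right of both controls.

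Markers of astrocytes and of vascular cells had somewhat higher medians than all genes, and microglial markers a lower one. Of 22 microglial markers 18 had lower means, 2 of them at an unadjusted p under 0.05 (9.09%, against 5.06% of all genes). The median of the 22 was -0.08, which was -0.12 without control mouse 2. Trem2, a lipid receptor of microglia, had 7.0 and 6.97 in controls and 6.74 and 6.61 in hip-needled mice, and Aif1, which encodes the microglial marker IBA1, had 6.24 and 6.32 in controls and 5.85 and 6.12 in hip-needled mice. Of 20 astrocyte markers 14 were higher and 5 of them had an unadjusted p under 0.05, with a median of 0.12, which was 0.062 without control mouse 1 and 0.043 without hip-needled mouse 2. Agt, which encodes angiotensinogen, differed by 1.01, with 9.44 and 9.40 in controls and 10.16 and 10.71 in hip-needled mice, and it stood at 10.93 in MPTP mouse 1. Of 18 genes of reactive astrocytes 13 were higher, 11 without overlap (61.1%, against 27.2% of all genes) and 5 at an unadjusted p under 0.05 (27.8%, against 8.1%). Of the 18, 1 passed the filter only through the hip-needled mice. The other 17 had 12 higher and 5 lower, with a median of 0.15. Over the 18 the median was 0.16, which was 0.10 without control mouse 1 or without hip-needled mouse 2. In 8 of the 18 both hip-needled mice lay above all 6 other arrays, where 6.86% of all probe sets did. Gfap, the intermediate filament of reactive astrocytes, had 7.98 and 8.06 in controls and 8.19 and 8.68 in hip-needled mice. Serpina3n, a protease inhibitor of reactive astrocytes, had 7.96 and 8.28 in controls and 8.48 and 8.60 in hip-needled mice. Gfap and Serpina3n were higher than the controls in both mice but did not pass the test (adjusted p = 0.376 and 0.318). Of 20 oligodendrocyte and myelin genes 12 were higher and 2 of them had an unadjusted p under 0.05. Of 24 genes of endothelial cells and pericytes 15 were higher and 9 lower, with 3 and 2 at an unadjusted p under 0.05 (12.5% and 8.33%, against 8.1% and 5.06% of all genes). Their median was 0.10, which was -0.014 without hip-needled mouse 2. Cldn5, the tight junction protein of brain capillaries, had 8.71 and 8.76 in controls and 8.51 and 8.17 in hip-needled mice. It was also low in the acupoint-needled mice, at 8.195 and 8.227. Slco1c1 and Flt1, of the same list, had smaller p than Cldn5 and were higher, by 0.53 and 0.32. Of 21 meningeal and fibroblast markers 14 were higher, 2 of which passed the filter only through the hip-needled mice, with a median of 0.11, which was 0.074 without control mouse 2 and 0.05 without hip-needled mouse 2. Igf2, a growth factor made by meninges and choroid plexus, had 7.80 and 7.77 in controls and 8.80 and 9.42 in hip-needled mice.

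Histone genes had the lowest median of the lists, at -0.296, but striatal signalling genes were next at -0.294. With 1 array left out these medians lay between -0.338 and -0.257 and between -0.435 and -0.109, so their order was not stable. Ribosomal protein and complex I genes were lower by smaller amounts. Of 15 histone genes with a probe set given 1 symbol, 10 passed the filter, and these 10 were lower, with a median of -0.30. Without overlap there were 8 (80.0%, against 22.3% of all genes) and at an unadjusted p under 0.05 there were 6 (60.0%, against 5.06%). H1f5, which encodes a linker histone, had 8.27 and 8.26 in controls and 7.54 and 7.48 in hip-needled mice. H1f1, another linker histone gene, had 7.95 and 7.88 in controls and 7.38 and 7.06 in hip-needled mice. Pclaf, which encodes a partner of the replication clamp PCNA, had 7.20 in each control and 6.57 and 6.28 in hip-needled mice. Of 55 ribosomal protein genes 44 were lower, 32 without overlap (58.2%, against 22.3% of all genes) and 6 at an unadjusted p under 0.05 (10.9%, against 5.06%). Their median was -0.10, and 1 of the 55 passed the filter only through the controls. Rps2 had 11.98 and 11.97 in controls and 11.66 and 11.60 in hip-needled mice. Copies and pseudogenes of ribosomal protein genes share sequence, so their signals are uncertain. Of 35 complex I subunits, the targets of the MPTP toxin, 25 were lower and 10 higher, with a median of -0.07, which was -0.034 without hip-needled mouse 1. Ndufa8 had 10.07 and 10.10 in controls and 9.81 and 9.77 in hip-needled mice. In 8 of the 35 both hip-needled mice lay below all 6 other arrays, and in 0 above, where 4.16% of all probe sets lay below.

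Receptor, transporter and other families were mostly divided. Of 13 interneuron markers 6 were higher, led by Calb2 (which is also among the thalamus markers) and by Pvalb, the calcium buffer of fast-spiking neurons, with 8.60 and 8.48 in controls and 9.02 and 9.96 in hip-needled mice. Its highest array was MPTP mouse 1, at 10.60. Of 15 neuropeptide and opioid receptor genes 10 were lower, with a median of -0.19, which was -0.33 without hip-needled mouse 1 and 0.01 without mouse 2, while Tac2, the neurokinin B precursor, was higher at 7.30 and 7.88 against 6.91 and 6.74 in controls. Of 36 GABA and glutamate receptor genes 20 were higher and 16 lower. Gabrd, which encodes the delta subunit of extrasynaptic GABA-A receptors, was lower, with 8.72 and 8.69 in controls and 8.28 and 8.36 in hip-needled mice. Of 53 voltage-gated channel genes 26 were higher and 27 lower, and of 13 serotonin receptors 9 were lower. Of 281 solute carriers 142 were higher and 139 lower, but 37 were higher and 14 lower at an unadjusted p under 0.05 (13.2% and 4.98%, against 8.1% and 5.06% of all genes). Of the 281, 2 passed the filter only through the hip-needled mice and 5 only through the controls. Slc2a12, a glucose transporter, was among the higher ones, with 7.08 and 7.38 in controls and 8.74 and 9.52 in hip-needled mice, and it was also high in MPTP mouse 1 and acupoint-needled mouse 1, the other mice with high choroid plexus values. Of 18 inflammatory mediators 10 were higher, with medians of 0.019 to 0.065 when 1 array was left out, and Ccl3, a chemokine, had 6.17 and 6.13 in controls and 6.61 and 6.77 in hip-needled mice, above all 6 other arrays. Of 17 interferon-stimulated genes 11 were higher and 0 had an unadjusted p under 0.05. Of 14 genes of familial parkinsonism 9 were higher, and 1 was lower at that p (7.14%, against 5.06% of all genes). That gene was Htra2, a mitochondrial protease, at 7.46 and 7.41 in controls and 7.25 and 7.13 in hip-needled mice. Apoptosis genes (19), neurotrophic factors and receptors (23), oligodendrocyte precursor markers (12), mitochondrial ribosomal proteins (74) and proteasome subunits (45) had medians between -0.04 and 0.03, and between -0.064 and 0.073 when 1 array was left out. Of 52 collagen and laminin genes 35 were lower, yet the 4 at an unadjusted p under 0.05 were all higher (7.69%, against 8.1% of all genes). Of 1015 olfactory receptors with a probe set given 1 symbol, 60 passed the filter, 6 of them only through the controls. Of the 60, 52 were lower, with a median of -0.17, which was -0.075 without control mouse 1 and -0.038 without hip-needled mouse 2.

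Further genes that stood out by p or by size were lower in some cases and higher in others. Rspo2, a secreted amplifier of Wnt signalling, had 6.65 and 6.48 in controls and 5.67 and 5.64 in hip-needled mice (adjusted p = 0.186), with 5.63 and 6.57 in the MPTP mice and 5.81 and 5.74 in the acupoint-needled mice. Prss12, which encodes the synaptic protease neurotrypsin, had 7.04 and 6.86 in controls and 6.13 and 6.08 in hip-needled mice. Vxn, which encodes vexin, a regulator of neurogenesis, differed by -1.17, with 9.85 and 10.004 in controls and 8.51 and 9.01 in hip-needled mice. Ccn3, a matricellular protein, differed by -1.38 with a wide spread, at 8.28 and 8.23 in controls and 6.20 and 7.55 in hip-needled mice. Rspo2, Prss12, Vxn and Ccn3 were lower in both needled groups and in MPTP mouse 1 than in the controls, while MPTP mouse 2 lay near the controls or between them. Dlc1, a GTPase-activating protein, had 6.02 and 6.03 in controls and 5.52 and 5.42 in hip-needled mice. Snora44, a small nucleolar RNA that guides modification of ribosomal RNA, was higher, with 5.74 and 5.78 in controls and 6.62 and 6.73 in hip-needled mice. In the other groups it spread widely, at 8.249 and 6.87 in the MPTP mice and at 5.775 and 7.633 in the acupoint-needled mice. Of the 41 members of its list 10 were higher and 31 lower, 2 of which passed the filter only through the controls. Adcyap1, which encodes the neuropeptide PACAP, had 6.43 and 6.30 in controls and 6.81 and 6.83 in hip-needled mice.

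The hip-needled mice were also compared with the other MPTP-treated groups, to see whether differences from control were shared. In the model over 8 arrays, limma called 0 of 16348 probe sets (0.0%) against the MPTP group, with 586 (3.58%) higher and 483 (2.95%) lower at an unadjusted p under 0.05. Against the acupoint group it also called 0 (0.0%), with 358 (2.19%) higher and 166 (1.02%) lower. A missed threshold at 2 mice a group does not show that the groups were alike. With 1 MPTP mouse left out, the MPTP group was a lone mouse, assumed to vary like the other groups. The number of calls then depended on which mouse was left out. Thalamus markers averaged 2.05 in MPTP mouse 1 and -0.51 in MPTP mouse 2. Sln, which encodes sarcolipin, a regulator of the calcium pump, had 4.62 and 4.87 in the MPTP mice and 5.72 and 5.66 in the hip-needled mice (unadjusted p = 9.8e-05, adjusted p = 0.313), with 5.28 and 5.13 in controls, and it passed the filter only through the hip-needled mice. Rsph4a, of cilia, had an unadjusted p of 0.000152 against the MPTP group. Fgf2, a growth factor for neurons and glia, had 6.31 and 6.47 in controls, 6.29 and 6.46 in MPTP mice, 6.38 and 6.26 in acupoint-needled mice, and 6.73 and 6.80 in hip-needled mice. In Fgf2 and Sln both hip-needled mice lay above all 6 other arrays. Over all probe sets, 1121 (6.86%) had both hip-needled arrays above the other 6 and 680 (4.16%) had both below.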

How the data were processed

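Gene expression was measured on whole-transcript Affymetrix arrays, 1 per mouse, from 300 ng of striatal RNA per the labels' protocols. The authors deposited 1 log2 value per probe set and array, made with Affymetrix Expression Console and RMA per the submitters' processing notes, with no version given. RMA quantile-normalises the arrays, so a shift shared by most genes cannot be seen. No scanner files were used here, and the log2 scale rests on those notes and on values up to 14.4. Precision is limited by having 2 arrays a group.

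The platform's gene table gave 1 symbol to 21797 of 35557 probe sets, several to 1613 and none to 12147. Of those with 1 symbol, 21706 matched RefSeq (GRCm38.p6) by gene ID. Tests kept those with 1 symbol whose mean in the 4 arrays reached 5.24 (the 25th percentile), which were 16348 probe sets for 14893 genes. The fit used limma (version 3.58.1, run in R 4.3.3; functions lmFit and eBayes, contrast of the 2 groups, no block, 2 residual and 3.86 prior degrees of freedom). Benjamini-Hochberg adjustment ran over all probe sets at 0.05. Differences from the other MPTP-treated groups came from 1 model over the 8 arrays. The code was tested on simulated data.

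Counts and medians describe 43 of the 44 gene lists, those with 3 or more genes measured, with 1 probe set per gene (that with the highest mean). Comparisons with control of the 3 MPTP-treated groups share the same 2 control arrays, so their values stand side by side without a test of overlap. A rule picked 165 genes, and the text describes only some of them, a choice that the rule did not set. It took the 15 higher and 15 lower with the smallest p. It also took the 10 in each direction with the largest difference at an unadjusted p under 0.05, and up to 4 members of each list at that p. A further 17 genes were fixed. Gene models, receptors of smell and microRNA genes were left out. All but the fixed genes also had to have no overlap between the 2 groups, so their separation was set by the rule. The comparison, the lists and the named genes were chosen with earlier results of these data known. The alternatives tried were other filters, models, normalisations, covariates, a replicate block and left-out arrays.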

Additional observations from a re-analysis of the deposited data

How the results depend on the processing

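The 2 calls were both kept, and no more were made, without a filter on dim probe sets and after quantile normalisation was repeated on the 4 arrays, and both were among 3 with a filter at the 50th percentile. The count was 0 with the 8 arrays in 1 model (smallest adjusted p 0.767), 0 with all 35557 probe sets included (1394 higher and 1397 lower at an unadjusted p under 0.05), 32 with trend and robust shrinkage and 34 with each array centred on its median, with Ttr and Kcnj13 among both. Leaving out 1 array gave between 1 and 1146 calls, the lone array of a group being assumed to vary like the others. With the mean of the choroid plexus markers of each array as a covariate over the 8 arrays the count was 0 (629 higher and 542 lower at an unadjusted p under 0.05), and with the thalamus markers it was also 0 (1023 higher and 601 lower). With the sample number as a replicate block the count was 27. Same-numbered control and hip-needled mice deviated from their group means with a correlation of 0.263, over 2 numbers only, and the other pairs of groups gave -0.49 to 0.40, so the numbers were not taken to pair the mice. The count against the MPTP group was 794 without MPTP replicate 2 and 0 in the other fits, while that against the acupoint group was 0 in all fits. For 87 of the genes named, 1199 values were refitted. Of these, 44 had the opposite sign, none of them for Ttr or Kcnj13, and the cause was not tested.

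With the choroid plexus covariate the opposite sign was found for Folr1 (-0.10), Sostdc1 (-0.20), Lbp (-0.10), Cldn2 (-0.15), Calb2 (-0.51), Pvalb (-0.98), Slc2a12 (-0.27), Ccl3 (-0.11), Slc17a6 (-1.69), Tcf7l2 (-1.30), Zic2 (-0.57), Zic5 (-0.35), Agt (-0.54), Adcyap1 (-0.35), Tsc22d3 (-0.23), Gfap (-0.21), Nr4a1 (0.11), Trem2 (0.038), Rgs9 (1.12), Rarb (0.86), Gpr6 (1.20), Ppp1r1b (1.17), Drd1 (1.23), Drd2 (1.28), Tac1 (1.33), Penk (1.03), Pdyn (1.16) and Th (0.58). With the thalamus covariate it was found for Rgs9 (0.12), Rarb (0.025), Gpr6 (0.042), Ppp1r1b (0.25), Drd1 (0.31), Drd2 (0.37), Tac1 (0.38), Penk (0.33), Pdyn (0.37) and Th (0.12). Sgk1, which is near 0, was at 0.033 after median centring, 0.10 without hip-needled mouse 1 and 0.09 without control mouse 2. With 1 array left out, Pdyn lay between -0.64 and 0.050, Th between -0.31 and 0.15 and Slc6a3 between -0.30 and 0.11, the highest values coming without hip-needled mouse 2 for Pdyn and Th and without control mouse 1 for Slc6a3.

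The median of choroid plexus genes lay between 1.39 and 2.02 with 1 array left out, and was -0.028 with their own mean as covariate and 1.18 with that of the thalamus. The median of thalamus genes lay between 0.21 and 1.32, and was -1.01 with the choroid plexus covariate and -0.012 with its own. The median of immediate early genes lay between -0.32 and -0.21, and was -0.22 after median centring, -0.13 with the choroid plexus covariate and -0.17 with the thalamus covariate. The median of heat shock and chaperones lay between 0.061 and 0.22, and was 0.18 after median centring and -0.007 with the choroid plexus covariate. Depth is not defined for arrays, and 2 arrays a group limit every value.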
